A study of Rattus norvegicus with 15 samples.

Results

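The transcripts of 7 genes made in skeletal muscle fibres were followed in the olfactory epithelium of Brown Norway rats. These were Acta1, Tnni2, Tnnt3, Myh4, Ckm, Mb and Pvalb, taken by gene name from the annotation of an Agilent whole rat genome array. They are 7 of its 35561 distinct names, and each was measured by 1 of the 41012 probes. The 15 one-color arrays came from 4 males (males 1, 2, 5 and 6) and 4 females (females 3, 4, 7 and 8) aged 6 weeks, which had received no odorant treatment. Nostrils A and B were separate samples in 7 rats, and male 1 gave nostril A only. Neither the side of a nostril nor the supplier of a rat is given by the labels.

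Skeletal muscle contracts when calcium released inside the fibre binds to troponin on the thin actin filament and lets the heads of myosin, in the thick filament, pull on it. Fast fibres carry their own versions of these proteins, together with stores of creatine phosphate and, in many fibres, proteins that bind oxygen or calcium. The olfactory epithelium is a sheet of sensory neurons, supporting cells and basal cells on the nasal turbinates. It is not known for muscle fibres of its own. Of the 7 genes, Mb is also active in heart and Pvalb in some neurons.

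The probes of 3 genes are printed here, 5′ to 3′, because they read muscle transcripts that were past 2-fold higher in nostril A of both male 6 and female 7 (Tnnt3 and Ckm), or a fast myosin that was not detected (Myh4). Each is 60 bases long and no base is in capitals, since the whole probe is the measured stretch. Positions are those of the array annotation in build rn3, which gives no exons or untranslated regions.
Tnnt3, chr1:202919125-202919184, plus strand: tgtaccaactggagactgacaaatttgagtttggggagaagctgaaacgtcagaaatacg
Ckm, chr1:78850529-78850588, plus strand: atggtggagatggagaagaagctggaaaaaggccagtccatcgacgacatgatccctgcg
Myh4, chr10:53967556-53967615, plus strand: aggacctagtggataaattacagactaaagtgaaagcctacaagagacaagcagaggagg
Other probes lie at chr1:202849772-202849831 on the plus strand for Tnni2, at chr7:115121808-115121867 on the minus strand for Mb and at chr7:116148929-116148988 on the minus strand for Pvalb.

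The promoters of Acta1 and Ckm are also shown, since these transcripts were detected on the same 2 arrays, although the arrays measured only RNA. Of the 7 genes, 6 were in the RefSeq promoter table of build GRCr8, which did not name Tnnt3. The 250 bases before the start of transcription are given 5′ to 3′ along the gene. Capitals mark motifs found by a search of both strands, which in Acta1 are the CArG box of serum response factor, the MCAT element CATTCC and the sequence TATAAA, and in Ckm the E-box CANNTG, which myogenic factors bind.
Acta1, chr19:68784195-68784444, minus strand: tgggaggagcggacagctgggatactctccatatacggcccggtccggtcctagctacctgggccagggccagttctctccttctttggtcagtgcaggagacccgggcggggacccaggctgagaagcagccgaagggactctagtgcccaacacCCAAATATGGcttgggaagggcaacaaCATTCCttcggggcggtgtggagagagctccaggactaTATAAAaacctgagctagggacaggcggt
Ckm, chr1:88189211-88189460, plus strand: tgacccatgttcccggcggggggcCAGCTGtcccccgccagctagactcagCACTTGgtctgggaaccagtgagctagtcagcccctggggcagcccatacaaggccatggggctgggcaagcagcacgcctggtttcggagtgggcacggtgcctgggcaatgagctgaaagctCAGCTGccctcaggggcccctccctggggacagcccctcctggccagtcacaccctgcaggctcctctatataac
The CArG box of Acta1 starts at -94, counted back from the start, and 1.5% of the 33469 promoters of this length hold one. Its MCAT element starts at -67 (12.1% of promoters), its TATAAA at -29 (12.9%), and it has an E-box, not capitalized, at -237. The 3 E-boxes of Ckm start at -226, -199 and -75, and 65.5% of promoters hold at least 1. None of these motifs overlap one another. They are matches of letters, not measured sites.

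A level is given as log2 of the spot signal over the median signal of its array, so 0 is the array median and 1 unit is a 2-fold difference. Signals under 0.1 of the median were raised to that floor, which is -3.32 on this scale. Detection means that the scanner software called the spot well above background. The lowest signal so called was 10.01 to 14.49 intensity units, or -2.96 to -2.08 on the log2 scale, and 26233 to 28741 probes were detected per array. Levels of different probes are not compared, because probes bind their targets with different strength. Mean signal served only to choose which genes of a list to name.

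Nostril A of female 7 had the highest level of the 15 arrays for the 6 genes detected on any array, and nostril A of male 6 was the next highest array for the same 6, as the plot of levels by array shows. The remaining 13 arrays, which include nostril B of both animals, held these transcripts at lower levels or below detection. In bulk tissue, fewer cells of a type and less RNA per cell cannot be told apart. Omp, the marker of mature olfactory neurons, was detected on all 15 arrays. Its level lay between 7.34 and 7.69 on the 13 arrays, at 7.46 in male 6A and at 7.64 in female 7A. The mean level over 10 probes of mature olfactory neurons was also within the range of the 13 arrays on both. Not all neuron probes were: male 6A lay slightly below all 13 for a probe of Gnal, of mature neurons, and for Gap43 and Dcx, of immature neurons.

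**Figure D1:**
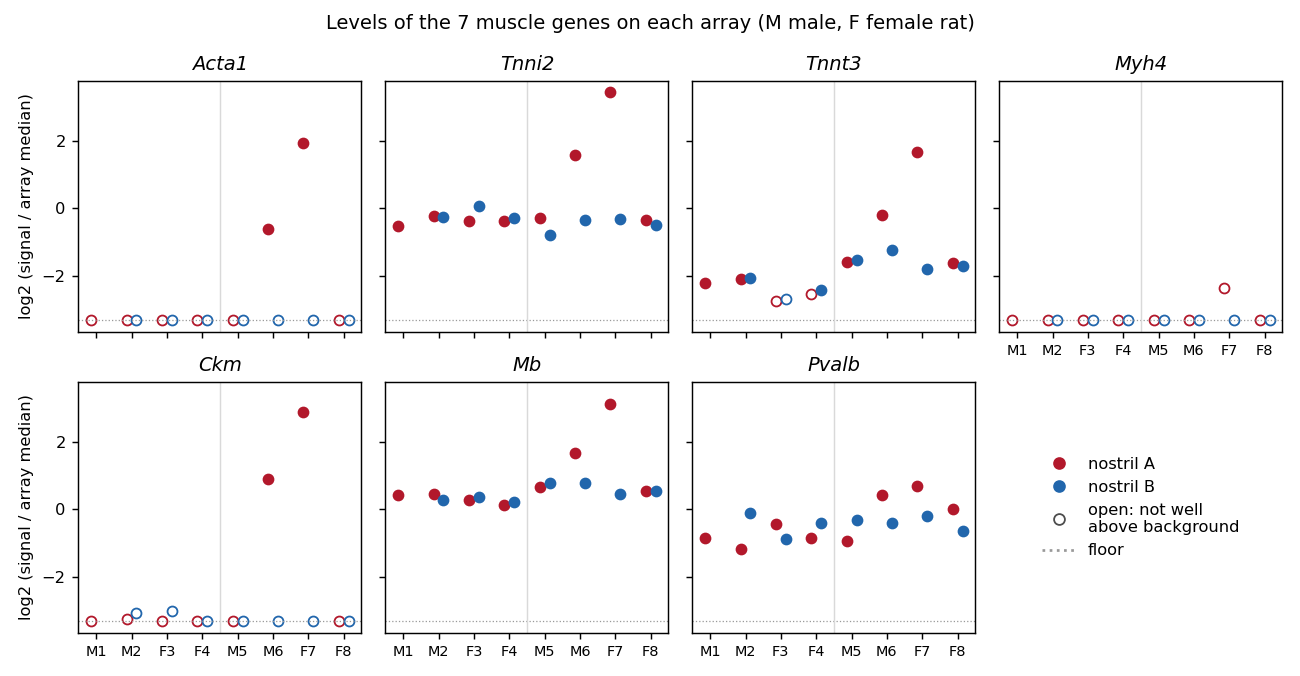
Log2 level over the array median (vertical axis) of each muscle gene in rats M1 to F8 (M male, F female), with nostril A in red, nostril B in blue, open circles for spots not well above background and a dotted line at the floor of -3.32. Nostril A of male 6 and of female 7 rise above the other 13 arrays for Acta1, Tnni2, Tnnt3, Ckm and Mb.

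Of the thin filament genes, Acta1 encodes skeletal alpha-actin, the filament itself. It was detected on 2 of the 15 arrays. The 7 male arrays had a lowest and a median level at the floor and a highest level of -0.62, in 6A. The 8 female arrays likewise had a lowest and a median level at the floor and a highest of 1.93, in 7A. All 13 other arrays were at the floor, so the 2 arrays do not overlap with them.

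Tnni2 encodes fast troponin I, the subunit that blocks myosin binding until calcium arrives. It was detected on all 15 arrays. Its level was -0.78 at the lowest, -0.28 at the median and 1.57 at the highest in male arrays, and -0.50, -0.33 and 3.44 in female arrays. The 13 arrays other than male 6A and female 7A spanned -0.78 to 0.07 with a mean of -0.35 ± 0.20 (SD, n = 13), and both arrays lay above that range.

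Tnnt3 encodes fast troponin T, which ties the troponin complex to tropomyosin. It was detected on 12 arrays and missed on both of female 3 and on nostril A of female 4. The lowest, median and highest levels were -2.21, -1.60 and -0.19 in males and -2.76, -2.11 and 1.68 in females. The 13 other arrays spanned -2.76 to -1.24 with a mean of -2.02 ± 0.48 (SD, n = 13), again below male 6A and female 7A.

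Myh4, the myosin heavy chain of the fastest fibres (type IIB), was detected on none of the 15 arrays. Its signal was at the floor on 14 arrays and at -2.35 in female 7A, which the software did not call well above background. The level of this transcript in the other samples was therefore not detectable, and no fold difference can be given.

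Ckm encodes the creatine kinase of muscle, which regenerates ATP from creatine phosphate. It was detected on 2 arrays, male 6A at 0.91 and female 7A at 2.90. The lowest and the median level of male arrays, and of female arrays, were at the floor. The other 13 arrays reached -3.0 at most, in nostril B of female 3, and 10 of them were at the floor.

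Mb, the oxygen store myoglobin, was detected on all 15 arrays. Its lowest, median and highest levels were 0.28, 0.66 and 1.67 in males and 0.12, 0.42 and 3.11 in females. The 13 other arrays spanned 0.12 to 0.80 with a mean of 0.46 ± 0.21 (SD, n = 13). Male 6A and female 7A were both above this range.

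Pvalb encodes parvalbumin, the calcium buffer that speeds relaxation in fast fibres and that some neurons also make. It was detected on all 15 arrays and, of the 6 genes detected on any array, was the most even between the nostrils of male 6 and of female 7. Its lowest, median and highest levels were -1.17, -0.39 and 0.41 in males and -0.89, -0.43 and 0.68 in females. The 13 other arrays spanned -1.17 to -0.002, so the 2 highest arrays were again female 7A and male 6A.

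The question of the paired nostrils is how alike 2 samples of the same animal are. In female 7, the level of Tnni2 was 3.44 in nostril A and -0.31 in nostril B, a 13.4-fold difference. Tnnt3 was at 1.68 against -1.80, which is 11.2-fold, and Mb at 3.11 against 0.47, which is 6.26-fold. Ckm was at least 41.6-fold and Acta1 at least 21.2-fold higher in nostril A. These bounds set nostril A against the lowest signal called well above background on the array of nostril B, where neither transcript was detected. Pvalb was 1.86-fold higher in nostril A.

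In male 6 the same genes differed in the same direction by less. Tnni2 was at 1.57 in nostril A and -0.34 in nostril B, a 3.76-fold difference. Tnnt3 was 2.07-fold, Mb 1.84-fold and Pvalb 1.75-fold higher in nostril A. Ckm was at least 7.95-fold and Acta1 at least 2.75-fold higher. All 6 genes measured above background in either animal were higher in nostril A in both.

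In the 5 other rats the differences were small and went both ways. Nostril A minus nostril B ranged from -0.45 to 0.51 for Tnni2, from -0.13 to 0.08 for Tnnt3 and from -0.14 to 0.19 for Mb. The -0.13 of Tnnt3 was in female 4, where nostril A was not above background, and in female 3 neither nostril was. Pvalb ranged more widely, from -1.07 in male 2 to 0.63 in female 8. Its values of 0.81 in male 6 and 0.89 in female 7 are therefore close to what other animals showed. Acta1 and Ckm were not detected in either nostril of these rats.

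The sizes in male 6 and female 7 depend on how dim spots are treated. With the normexp background correction, which adds an offset of 50 intensity units, nostril A minus nostril B in female 7 was 2.83 for Tnni2, 1.96 for Mb, 1.68 for Tnnt3, 3.08 for Ckm and 2.08 for Acta1. In male 6 it was 1.19 for Tnni2, 1.56 for Ckm, 0.62 for Mb, 0.63 for Acta1 and 0.51 for Tnnt3, so Tnnt3 and Acta1 were no longer past 2-fold there. The direction was the same for all of these genes.

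**Figure D2:**
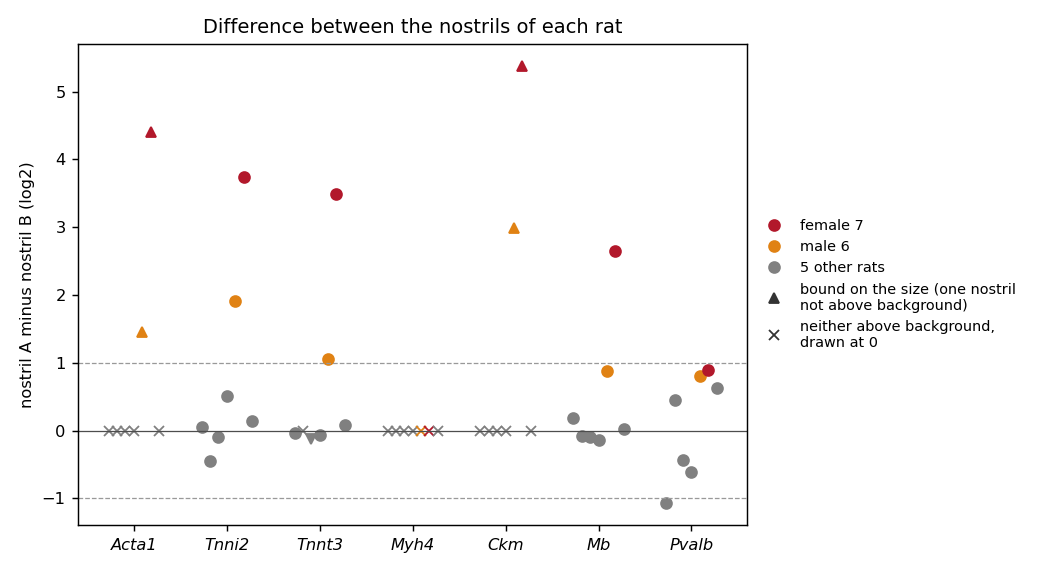
Nostril A minus nostril B on the log2 scale (vertical axis) for each muscle gene in the 7 rats with both nostrils, with female 7 in red, male 6 in orange and the 5 other rats in grey. Triangles are bounds, crosses are pairs with neither spot above background, and dashed lines mark a 2-fold difference; the red symbols of Ckm, Acta1, Tnni2, Tnnt3 and Mb lie between 2.65 and 5.38.

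A pair of arrays gives no replicate within an animal, so these differences have no test, and they were read against the other probes of the same pair. The 7 genes were chosen with earlier results of these data known, so the shares and ranks here and below are a description. Of the 7 genes, 4 (Mb, Pvalb, Tnni2 and Tnnt3) were among the 27574 probes detected on at least 7 arrays and complete on all of them, called tested probes here. In female 7, 3 of these 4 genes were past a 2-fold difference in either direction, against 1.31% of tested probes. In male 6 it was 2 of 4, against 1.96%. In male 2 it was 1 of 4, Pvalb, which was higher in nostril B, against 1.45%. In female 3, female 4, male 5 and female 8 it was 0 of 4, against 2.78%, 3.01%, 1.43% and 0.631%.

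Counting all 7 genes, with undetected spots raised to the detection limit of their array, nostril A was past 2-fold above nostril B for 5 genes in female 7 and for 4 in male 6. Over all 41012 probes this held for 0.388% in female 7 and for 0.683% in male 6. Among tested probes, the difference of Tnni2 in female 7 ranked 2 of 27574 from the top, that of Tnnt3 ranked 3 and that of Mb ranked 10. In male 6 the ranks were 26 for Tnni2, 296 for Tnnt3, 469 for Mb and 586 for Pvalb.

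The size of the excess was also compared between the 2 animals on the linear scale, as signal over array median in nostril A minus that in nostril B, without the floor. The excess of Tnni2 was 10.02 in female 7 and 2.18 in male 6, a ratio of 4.59. The ratio of female 7 to male 6 was 5.00 for Mb, 6.43 for Tnnt3 and 1.30 for Pvalb. None is given for Acta1 and Ckm, whose signal in nostril B was not above background. These ratios compare single pairs of arrays and have no error of their own.

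These arrays were also set against the others over all tested probes, a filter that leaves out Acta1 and Ckm, which only these arrays detected. In female 7A, 10 tested probes (0.0363%) were past 2-fold above the highest of the 13 arrays other than male 6A, and Tnni2, Tnnt3 and Mb were 3 of them. The others, named here after their values were seen, were Mybpc2, Myl11, Atp2a1, Rpl3l, Gys2, the myozenin 1-like transcript RGD1561064 and the unnamed BF399135. Of these, Mybpc2 was detected on 7 arrays including male 6A and female 7A, so it passed the filter only through them. In male 6A, 9 tested probes (0.0326%) met the same limit, among them Tnni2 and Tnnt3. Both arrays met it for 2 probes (0.00725%), and these were Tnni2 and Tnnt3. The other 7 probes of male 6A were on no list of muscle genes.

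**Figure D3:**
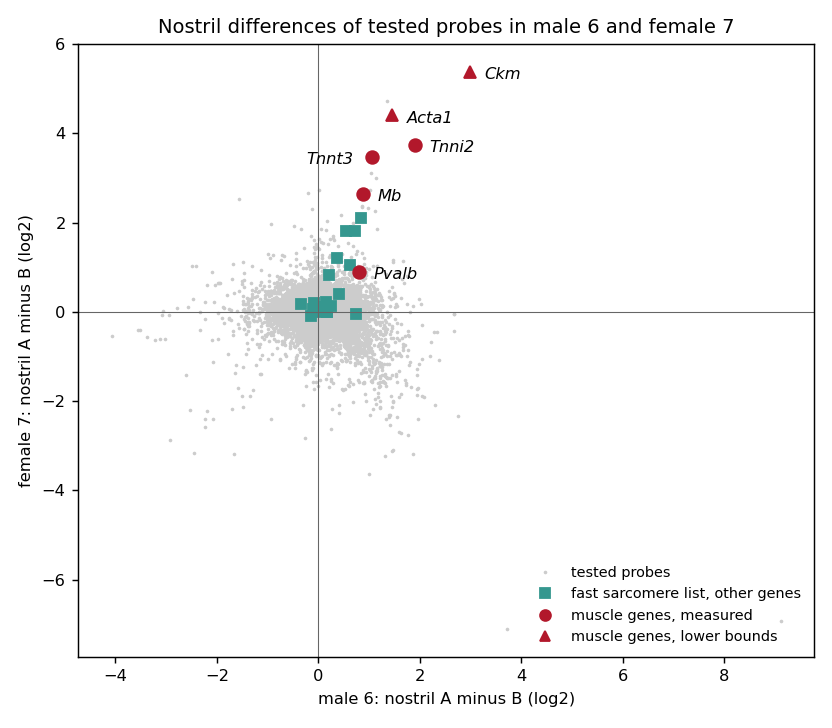
Nostril A minus nostril B on the log2 scale in male 6 (horizontal axis) and female 7 (vertical axis) for 27574 tested probes in grey, the tested probes of other fast sarcomere genes as squares, and 6 muscle genes in red, with triangles for lower bounds. Tnni2 lies at 1.91 and 3.75, far to the upper right of most probes, while most squares lie near the origin.

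Over all 7 paired rats, none of the 4 tested genes differed between nostrils A and B by limma at an adjusted p of 0.01, nor did any reach an unadjusted p of 0.05. The mean level of Tnni2 was 0.49 ± 1.48 in nostril A and -0.34 ± 0.26 in nostril B (SD, n = 7 rats). Its difference was 0.83 with a standard error of 0.45 (limma with rat as a block, adjusted p = 0.781). For Mb it was 0.49 with a standard error of 0.31 (limma, adjusted p = 0.786), for Tnnt3 0.61 with 0.41 (limma, adjusted p = 0.791) and for Pvalb 0.09 with 0.24 (limma, adjusted p = 0.948). Of all tested probes, 0.0% passed, and 1623 had an unadjusted p under 0.05. Without male 6 and female 7 the differences were 0.03 for Tnni2, -0.05 for Tnnt3, -0.02 for Mb and -0.21 for Pvalb. The differences between nostrils did not depend on sex for any of the 4 genes at this threshold (limma, interaction of nostril and sex, lowest adjusted p of the 4 genes 0.9996), where 0.0% of tested probes passed and 652 had an unadjusted p under 0.05.

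The sexes were compared on the mean of the nostrils of each rat, with 4 rats per sex. Slides 2 and 4 held arrays of females only and slide 3 of males only, so sex and slide cannot be fully told apart. None of the 4 tested genes passed, where 0.0434% of the probes did, and none reached an unadjusted p of 0.05, as 4731 of 27625 probes did. The mean level of Tnni2 was -0.17 ± 0.54 in males and 0.17 ± 0.94 in females (SD, n = 4 rats each), a difference of 0.33 with a standard error of 0.44 (limma, adjusted p = 0.731). Female minus male was 0.02 with a standard error of 0.34 for Mb, -0.09 with 0.56 for Tnnt3 and 0.18 with 0.24 for Pvalb (limma, adjusted p = 0.987, 0.950 and 0.734). The ranges of the sexes overlapped for all 7 genes. The highest rat means of Tnni2 were those of female 7 and male 6, and without female 7 its difference was -0.13.

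Rats of the same sex were compared with the spread between nostrils as the error. Both nostrils of a paired rat lay on the same slide, except in female 3, so this error holds little of the spread between slides. With slide as a block 1 probe differed between rats, and without it 2.79% of tested probes (768) did. None of the 4 genes did (limma F-statistic, adjusted p = 0.319 for Mb, 0.377 for Pvalb, 0.450 for Tnni2 and 0.169 for Tnnt3), and none reached an unadjusted p of 0.05, as 10226 of the 27574 tested probes did. Without arrays male 6A and female 7A the unadjusted p was 0.00094 for Tnnt3 and 0.020 for Mb, with adjusted p of 0.0337 and 0.105 by the same limma test, which still missed the threshold of 0.01. In that fit 8481 of 27583 probes had an unadjusted p under 0.05 and 79 were called.

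The remaining 13 arrays show the level of these genes apart from those arrays. Tnnt3 spanned -2.76 to -2.05 on the 7 arrays of males 1 and 2 and females 3 and 4, and -1.80 to -1.24 on the 6 arrays of males 5 and 6 and females 7 and 8, with no overlap. Over tested probes 3.43% did not overlap between these arrays. Mb spanned 0.12 to 0.47 and 0.47 to 0.80 on the same arrays, overlapping by less than 0.01. The first 4 rats were hybridized on slides 1 and 2 and the last 4 on slides 3 and 4, so these sets of rats cannot be told apart from their slides. Tnni2 and Pvalb overlapped, at -0.53 to 0.07 against -0.78 to -0.28 and at -1.17 to -0.10 against -0.93 to -0.002.

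Other genes of muscle fibres were followed with 113 probes of 78 genes in 7 lists, also chosen with earlier results of these data known. A probe that was never detected cannot pass 2-fold at the detection limit, and list genes named because they passed it were named after their values were seen. In female 7, 7 of the 113 probes (6.19%) were past 2-fold higher in nostril A at the detection limit, against 0.388% of all probes. In male 6 it was 1 of 113 (0.885%), which is near the 0.683% of all probes. In the other rats it was 4 of 113 in female 4, 2 in female 3, 2 in male 5, and 0 in male 2 and female 8, against 1.68%, 1.43%, 0.549%, 0.532% and 0.39% of all probes. Nostril B was past 2-fold higher for 1 of the 113 in female 7, a probe of Ampd1, and for 0 in male 6, against 0.605% and 0.544% of all probes.

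The fast sarcomere list, of filament proteins, held 33 probes of 14 genes, and 5 of them were past 2-fold higher in nostril A of female 7 and 0 in male 6. These were Mybpc2, a myosin binding protein of fast fibres (4.31-fold), Myl11 and Myl1, light chains of fast myosin (3.53-fold each), Mybpc1 of slow fibres (2.32-fold) and Actn3, the Z disc actinin of fast fibres (2.08-fold). The Myl11 probe is named Myl2 on the array, and its RefSeq accession now belongs to Myl11. In male 6 the same probes were at 0.84, 0.54, 0.72, 0.37 and 0.62 on the log2 scale of A minus B, all under 2-fold, with nostril B not above background for Mybpc2 and Mybpc1. The mean level over the 19 tested probes was 3.18 in female 7A and 2.88 in male 6A, against 2.24 to 2.65 on the 13 other arrays. The median difference over the 19 tested probes of the list was 0.17 in female 7 and 0.18 in male 6, beside -0.01 and -0.08 over all tested probes.

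The 4 genes of that list with the highest mean level were not past 2-fold in either animal. They were Tpm2 and Tpm1, tropomyosins that smooth muscle and other cells also make, Tnnc2, the calcium sensor fast troponin C, and Myh13, a myosin of eye muscle. Their 10 probes differed by -0.04 to 0.82 in female 7 and by -0.11 to 0.74 in male 6. Tnnc2 was at 5.73 in nostril A and 5.77 in nostril B of female 7, where Tnni2 and Tnnt3 of the same complex differed by 13.4-fold and 11.2-fold. It was at 6.12 and 5.38 in male 6, against 4.26 to 5.85 on the 13 other arrays. The 0.82 belonged to 1 of 4 Tpm1 probes, at 4.51 in female 7A against 3.34 to 3.99 on the 13 other arrays.

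Of 18 calcium handling probes, 5 were never detected and 10 were tested, and 1 was past 2-fold higher in nostril A of female 7, Atp2a1, the calcium pump of fast fibres, at 0.61 against -1.03 (3.10-fold), and 0 in male 6. The brightest genes of the list, Cacnb1 and Ryr1 of the calcium release machinery, Trdn and Hrc, differed by -0.73 to 0.24 in female 7 and by -0.29 to 0.98 in male 6. The list median was 0.04 and -0.22.

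Energy metabolism genes had 17 probes, of which 1 was past 2-fold higher in nostril A of female 7, the mitochondrial creatine kinase Ckmt2. It was detected on that array alone, at 1.56, and was at least 16.5-fold above nostril B. In male 6A its level was -2.20 and not above background. The brightest genes, Aldoa, Fbp2, Pfkm and Cox8b, which many tissues use or which code for enzymes of sugar and oxygen use, differed by -0.11 to 0.69 in female 7 and by -0.14 to 0.32 in male 6.

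Of the 12 probes for Z disc and assembly proteins, 0 were past 2-fold in either animal, and the brightest, Pdlim3, Fbxo32, Des and Trim63, differed by -0.28 to 0.93 in female 7. Desmin (Des), the filament that links myofibrils, gave the 0.93. Slow and cardiac isoforms had 17 probes, 5 of them never detected, and 0 past 2-fold, with Tnni1, Tnni3, Myh7 and Myh6 at -0.17 to 0.31 in female 7 and -0.29 to 0.17 in male 6. Of 12 probes for myogenic regulators and synapse genes, 5 were never detected and 0 were past 2-fold. The developmental list had 4 probes, of which Myh8 was higher in nostril A of male 6 (at -0.87, at least 2.31-fold) and 0 in female 7. Its tested probe, of Myh3, differed by -0.24 and 0.05.

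Among probes detected on at least 7 arrays, the 15 of other genes whose levels followed the 4 tested muscle genes most closely over the 15 arrays correlated with their mean at r = 0.77 to 0.95. They were chosen by this correlation, so the values are a description. Over the 13 arrays without male 6A and female 7A, r ranged from -0.33 for AI059610 to 0.76 for AA900990. All 15 were higher in female 7A than on any of the 13 other arrays, and 6 were so in male 6A. Mybpc2, detected on 7 arrays including male 6A and female 7A, was first (r = 0.95), Myl11 second (r = 0.92) and Rpl3l, a ribosomal protein of muscle, next (r = 0.86). Without those arrays Mybpc2 would have missed the limit of 7 arrays. Tpm1 (1 of its probes, r = 0.83), Atp2a1 (r = 0.81) and Actn3 (r = 0.77) were also among them. The others were Ptpn3, a protein tyrosine phosphatase (r = 0.78), and 8 transcripts with no gene name, 7 of them expressed sequences or predicted transcripts named AA944315, AI059610, BE110143, TC536420, AA900990, AI409142 and AI178191, and the last known by its probe name alone. When male 6A and female 7A were left out, 0 of the 15 were again among the 15 closest. With probes detected on at least 2 arrays, a limit chosen after seeing the data, 10 of the 15 were again among the closest. The mean that probes were set against also changed in this run. Over the same 15 arrays r of Mybpc2 was 0.93 in place of 0.95. Probes of CB322781 (r = 0.98) and LOC691644 (r = 0.98) came first. Each was detected on 2 arrays, the fewest this limit allows, so its r rests on few detected values and is a description.

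Each gene detected on any array was set against the mean of the other tested members in the same way. Acta1 correlated at r = 0.98, Mb at 0.97, Ckm at 0.97, Tnnt3 at 0.94, Tnni2 at 0.90 and Pvalb at 0.75 over 15 arrays, and for Acta1 and Ckm this rests on the 2 arrays that detected them. Over the 13 other arrays, where Acta1 and Ckm were not detected, r was 0.60 for Mb, 0.54 for Tnnt3, 0.21 for Pvalb and -0.44 for Tnni2.

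Markers of the other cells of the region were read in the same pairs, and their part in the muscle result was not tested. Mature olfactory neuron probes were even in female 7, with 0 of 11 past 2-fold and Gnal and Cnga2 at -0.10 to 0.04. In male 6, Gnal and Cnga2 were at -0.25 to -0.18, with 0 of 11 past 2-fold. Immature neuron and basal cell probes (0 of 12), ciliated cell probes (0 of 7), cartilage probes (0 of 8), bone probes (0 of 10) and smooth muscle probes (0 of 11) were not past 2-fold in either animal. The mean level over the tested smooth muscle probes was 0.87 in female 7A and 0.81 in male 6A, within the -0.03 to 1.01 of the 13 other arrays. Outside the range of those arrays were sustentacular cell and gland probes in male 6A (4.73 against 5.41 to 6.58, a mean that includes both Obp1f probes, not detected there), fat cell probes in female 7A (3.68 against 2.39 to 3.45) and, by 0.01, immature neuron and basal cell probes in female 7A.

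Some probes of other lists were past 2-fold in male 6 or female 7, to be read against the shares of all probes given above for each animal and direction. Red cell probes were higher in nostril A of female 7 for 3 of 4, with Hbb, a hemoglobin chain, at 6.46 against 5.22 and Alas2, an enzyme of heme synthesis, at 5.79 against 4.38. In male 6 they were even, at 9.11 and 9.14 for Hbb and at 9.69 and 9.68 for Alas2. The mean level over its tested probes in female 7A, 4.75, lay within the 3.30 to 7.94 of the 13 other arrays. In the fat cell list, Fabp4 was 5.81-fold higher in nostril A of female 7 and 2.96-fold higher in nostril B of male 6, and Adipoq and Cfd were at 0.36 and 0.24 in female 7 and at 0.32 and 0.18 in male 6. Adipoq, a hormone of fat cells, was at 2.16 in male 6A and 2.13 in female 7A, both above the 0.92 to 1.84 of the 13 other arrays. Mbp, a myelin protein of Schwann and ensheathing cells named here after its values were seen, was higher in nostril A of male 6 by 2 probes (at least 3.60-fold, and 2.30-fold) and in nostril B of female 7 by 1 of them (3.25-fold). Of 10 endothelium probes, 1 (of Tie1, a receptor of vessel walls) was higher in nostril A of male 6. Of 13 sustentacular cell and gland probes, both of Obp1f, an odorant binding protein, were higher in nostril B of male 6, by at least 11.4-fold and at least 5.06-fold, and nostril A was not detected.

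**Figure D4:**
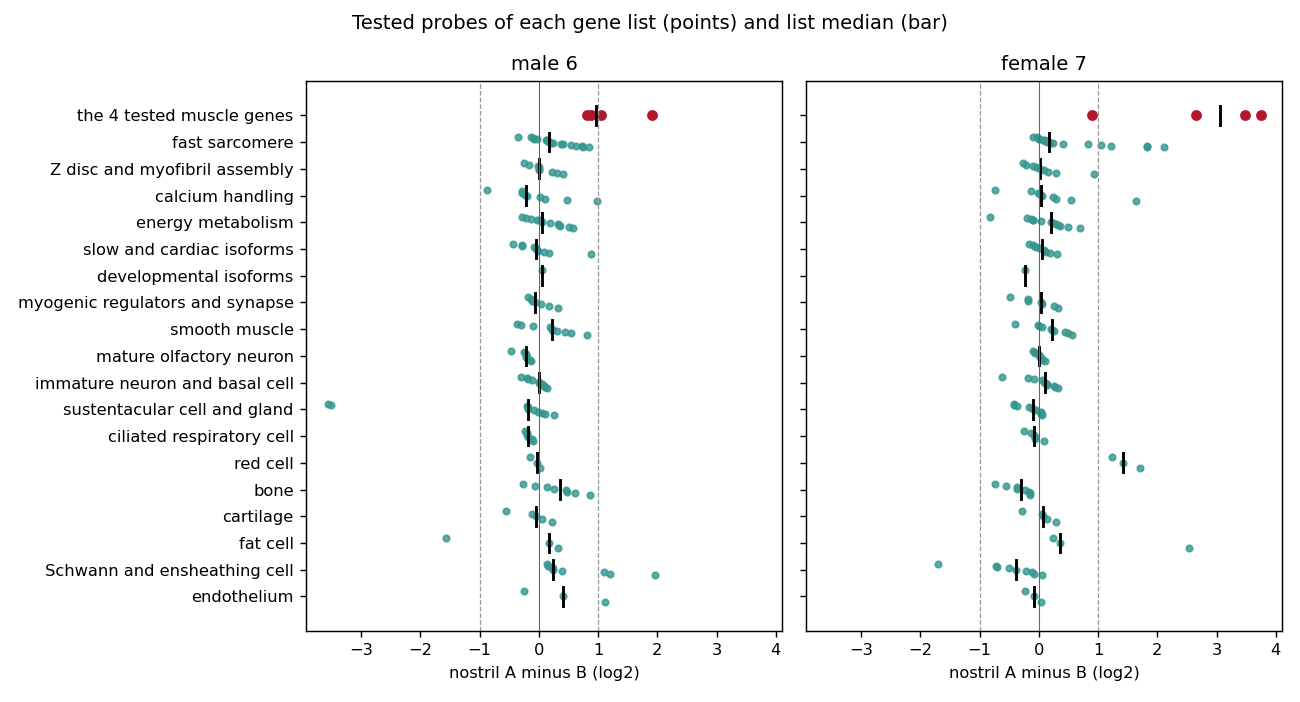
Nostril A minus nostril B on the log2 scale (horizontal axis) in male 6 (left) and female 7 (right) for the tested probes of each gene list, with black bars at list medians, the tested muscle genes in red and dashed lines at 2-fold. The median of the 4 muscle genes is 0.97 in male 6 and 3.06 in female 7, and those of the other lists lie between -0.38 and 0.40, except for red cell probes in female 7 (1.42).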

How the data were processed

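The deposited scanner files held spot intensity values that the authors extracted with Agilent Feature Extraction, with local background removed. The deposited table held a ratio per probe, and setting it against the intensities showed that each signal had been divided by its array median and then by its probe median (100.0% of ratios of 21876 bright probes within 2%). It served as an alternative.

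Between 61 and 175 spots per array that the software marked as uneven or as deviating from their copies were dropped. Copies of a probe were then averaged, each signal was set over the median of its array with a floor of 0.1, and log2 was applied. Tests used limma 3.58.1 (eBayes with a trend) in R 4.3.3 on probes detected on at least 7 arrays, two-sided, with Benjamini-Hochberg adjustment at 1%, the threshold of the study, and were checked on simulated data. Nostrils were compared with rat as a block, sexes on rat means, rats by an F-statistic. Nostrils of a rat share the animal, so rats are the replicates for sex. Precision is limited by the few animals.

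The 7 genes and all lists were chosen with earlier results of these data known. Named genes were the 7 members, up to 4 of the brightest tested genes per muscle list, up to 2 per other cell type list, and the 15 closest probes by correlation. Omp and list genes named because they passed 2-fold were added after their values were seen. Suppliers were not analysed here, and a few items are not reported here. An accession in the reference gene table was found for 10735 of 41012 probes.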

Additional observations from a re-analysis of the deposited data

Results flagged for a closer look

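Single arrays lay far from the others of their sex for the muscle genes. The measure used is the gap between the highest array and the next, divided by the range of the group, and about 1 in 20 groups would pass its limit by chance if genes had been chosen without regard to their values. These genes were chosen with earlier results of these data known and the arrays of a rat are not independent, so the 13 of 20 groups that passed are a description.

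In the 7 male arrays, nostril A of male 6 was set apart for Acta1 (1, as all others were at the floor), Ckm (0.939), Tnni2 (0.758) and Mb (0.628). In the 8 female arrays, nostril A of female 7 was set apart for Acta1 and Myh4 (1 each, all others at the floor), Ckm (0.949), Tnni2 (0.856), Mb (0.854) and Tnnt3 (0.747). The Myh4 spot was not called well above background. Over the 7 differences of nostril A minus nostril B, female 7 was set apart for Myh4 (1), Tnnt3 (0.673) and Mb (0.634). No group passed for Pvalb.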

How the results depend on the processing

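In the nostril, sex and rat comparisons, 0 tested muscle genes passed under any alternative run, and Tnnt3 between rats came closest (adjusted p = 0.0337 by limma without arrays male 6A and female 7A). Leaving out both of these arrays, or both of their rats, was chosen after seeing the data.

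Over all probes, the 12 called between sexes became 6 with the deposited ratios, 3 with probes on at least 11 arrays, 21 with rat as a random block, 468 with slide as a block and 5 by the methods' t-test. Only slide 1 held arrays of both sexes, so sex and slide are largely confounded in the fit with slide as a block. The 768 called between rats became 1305 with scaling to the 75th percentile, 1450 with quantile normalization, 1572 with normexp, 356 with the deposited ratios, 404 without the variance trend, 1 with slide as a block, 79 without arrays male 6A and female 7A, and 186 to 898 when a rat was left out.

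The 10 of 49 gene and rat pairs past 2-fold at the floor became 16 with a floor of 0.01, 17 with the deposited ratios and 5 to 10 when a rat was left out (5 without female 7, 6 without male 6). In male 6 the 4 genes past 2-fold became 2 with normexp, which adds an offset to dim signals. Of the 15 closest probes, 1 remained over the nostril differences of 7 rats and 0 without arrays male 6A and female 7A.

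Small differences that were not called changed sign. For nostril A minus B without male 6 and female 7, Mb was -0.020, Pvalb -0.21 and Tnnt3 -0.046, and with 1 rat left out Pvalb was -0.039 to 0.29. For female minus male, Mb was -0.012 with the 75th percentile, -0.0032 with rat as a random block, -0.14 with slide as a block and -0.20 without the 2 arrays. Tnni2 was -0.091 with slide as a block, and Tnnt3 0.13 with normexp. With 1 rat left out, female minus male was -0.34 to 0.20 for Mb, -0.014 to 0.36 for Pvalb, -0.13 to 0.60 for Tnni2 and -0.65 to 0.24 for Tnnt3. The cause was not tested.

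No paired analysis by replicate number was possible because the labels number rats, and males and females share no number, while nostrils were paired by rat. Signal over background limits Acta1, Ckm and Myh4, of which nothing below the detection limit can be read.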

Other observations

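Among tested probes, which leave out Acta1, Ckm and Ckmt2 because under 7 arrays detected them, those with the largest excess of nostril A over nostril B in female 7 were not all of muscle. These genes were named after their values were seen. Gys2, the glycogen synthase of liver, led at 2.38 against -2.35, and its highest level on the 13 other arrays was 1.30. Among the 15 largest of the tested probes were also transcripts of white blood cell granules, with Epx, the peroxidase of eosinophils, at -0.21 against -3.32, Prg2, their major basic protein, at 5.79 against 3.45, and Camp, an antimicrobial peptide of neutrophils, at 1.89 against -0.43. These levels in nostril A lay within the range of the 13 other arrays, which reached 1.34 for Epx, 7.35 for Prg2 and 3.51 for Camp. Of these 15 tested probes, 5 were higher in female 7A than on all 13 other arrays, namely Gys2, Fabp4 and the muscle genes Tnni2, Tnnt3 and Mb. In male 6 this held for 4 of the 15 largest among tested probes, and the 4 tested muscle genes were not among these. The largest in male 6 were LOC690507, similar to vomeromodulin (5.79 against -3.32), Cabs1 (0.40 against -3.32) and Ddn (-0.07 against -2.83). Their levels in nostril A lay within the range of the 13 other arrays.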
